A study of Rattus norvegicus with 4 samples.

Results

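The collagens and fibrous matrix genes are described here across 4 rat mammary cancers. Members were chosen by name: every gene with a probe set annotated to it alone whose symbol is that of a collagen chain (Col, a number, a, a number), and 14 further matrix genes (Fn1, Sparc, Postn, Dcn, Lum, Bgn, Fmod, Fbn1, Fbln1, Fbln2, Eln, Lox, Loxl1 and Pcolce). This gave 55 genes, 41 collagen chains and 14 others, measured by 77 probe sets, out of 14217 named genes on the array. The rule reads gene names only. All 4 tumours form 1 group: mammary cancers of female Sprague-Dawley rats given a single whole-body dose of 0.5 Gy of carbon ions (290 MeV/u, 6 cm spread-out Bragg peak) at 7 weeks of age and moved at the age of 9 weeks to a high-fat diet (AIN-76A with 23.5% corn oil). The rats were purchased at 5 weeks of age. Sprague-Dawley is an outbred stock, no genetic alteration is named, and nothing in the labels ties a tumour to a particular rat. Normal mammary gland and tumours of unirradiated rats were not analysed here, so no value measures an effect of radiation or diet.

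Each tumour was hybridised to 1 array, and differences between tumours therefore have no replicate check and carry no p-value. Levels are given as log2(signal + 16), on which a difference of 1 is 2-fold for bright genes and understates the change of dim ones. A gene was called expressed where its mean over the 4 tumours reached 7.81, the median of all probe sets (a signal of 209), and 42 of the 55 members were, against 9403 of all 14217 genes. The range of a gene is the difference between its highest and its lowest tumour, and the shift of a tumour is its difference from the mean of the other 3. Levels of different genes come from different probes and are not compared. All 4 arrays as deposited shared 1 trimmed mean signal, 500.1. The epithelial genes Krt8, Krt18, Epcam and Cdh1 lay between 11.49 and 13.70 in all tumours. This fits tissue that holds epithelium but does not speak for cancer, since normal gland was not analysed here. Krt8, Krt18, Epcam and Cdh1 were each lowest in tumour 1, as were other epithelial genes such as Cldn3 at 9.22. Esr1 was under the expression level. Control ratios of 3' over 5' signal lay between -0.02 and 0.04 log2 for GAPDH and between 0.30 and 0.48 for beta-actin.

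Collagens are trimers of alpha chains wound into a triple helix. Fibrillar collagens (types I, II, III, V and XI) assemble into the load-bearing fibrils of connective tissue, FACIT collagens sit on the surface of those fibrils, and type IV forms the network of basement membranes under epithelium and around vessels and fat cells. In the mammary gland and its tumours fibrillar collagen is made mainly by fibroblasts, lysyl oxidases cross-link it, small leucine-rich proteoglycans coat the fibrils, and elastin with fibrillin microfibrils gives recoil.

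The fibrous matrix varied far more between these 4 cancers than the transcriptome at large. Of the 42 expressed members, 29 had a range of at least 1 log2, a threshold passed by 12.4% of all expressed genes, and 8 had a range of at least 2 log2, against 2.42% of all expressed genes. With no expression level these counts were 38 and 12 of 55, against 21.1% and 3.99% of all genes. The 8 were Col1a1, Col1a2, Col6a1, Fn1, Eln, Fbln1, Lox and Pcolce. The median range of the members was 1.57 log2, against 0.47 over all expressed genes, and their median standard deviation (SD, n = 4) was 0.71 against 0.21. So wide a range was not particular to members. It reached 1 log2 in 8 of 9 expressed fibroblast genes outside the rule (median range 1.73) and 6 of 8 expressed macrophage genes (1.55). Mammary epithelial genes were narrower, with 5 of 11 expressed genes (0.86). A range under 0.5 log2, held by 54.3% of all expressed genes, was found in 5 members: Col4a1, Col4a2, Sparc, Col9a2 and Col23a1. Tumour 4 held most of the low values: 26 members were lowest there, against 25.1% of all expressed genes, and 12 lay at least 1 log2 below each of the other tumours, against 0.542%. The 12 were Col1a1, Col1a2, Col3a1, Col6a1, Col6a2, Col6a3, Fn1, Postn, Eln, Fbn1, Lox and Loxl1. Against the mean of the other tumours, 33 members were lower in tumour 4 (background 52.5%), 19 of them by at least 1 log2 (background 1.46%). Among the 29 members with a range of at least 1 log2, tumour 4 was lowest in 24, against 23.3% of all expressed genes with such a range. Tumours 1, 2 and 3 were lowest for 5, 4 and 7 members (background 36.2%, 17.6% and 21.1%).

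The high values were shared between tumour 1 (20 members highest, background 28.0%) and tumour 3 (17 members, background 24.5%), and this split moved with the scaling of the arrays: it was 13 and 23 after centring each array on its median, and 20 and 14 after quantile normalization. In tumour 1, 33 members were above the mean of the others (background 45.0%), and in tumour 3, 28 were (background 54.4%). Col4a5 and Col26a1 were highest in tumour 2 (background 26.4%) and Col6a6, Col17a1 and Col9a2 in tumour 4 (background 21.1%). The lowest tumour was the same in 41 of 42 members under either rescaling, the exception being Col11a1, and the highest was the same in 34 after median centring and 35 after quantile normalization. Without tumour 4, 12 of 44 expressed members kept a range of at least 1 log2 (background 9.46%) and 1 a range of at least 2 (background 1.64%). Without tumour 3 the counts were 25 (background 9.48%) and 4 (background 1.74%). They were 25 (background 5.75%) and 7 (background 0.969%) without tumour 1, and 29 (background 10.2%) and 7 (background 2.12%) without tumour 2.

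**Figure D1:**
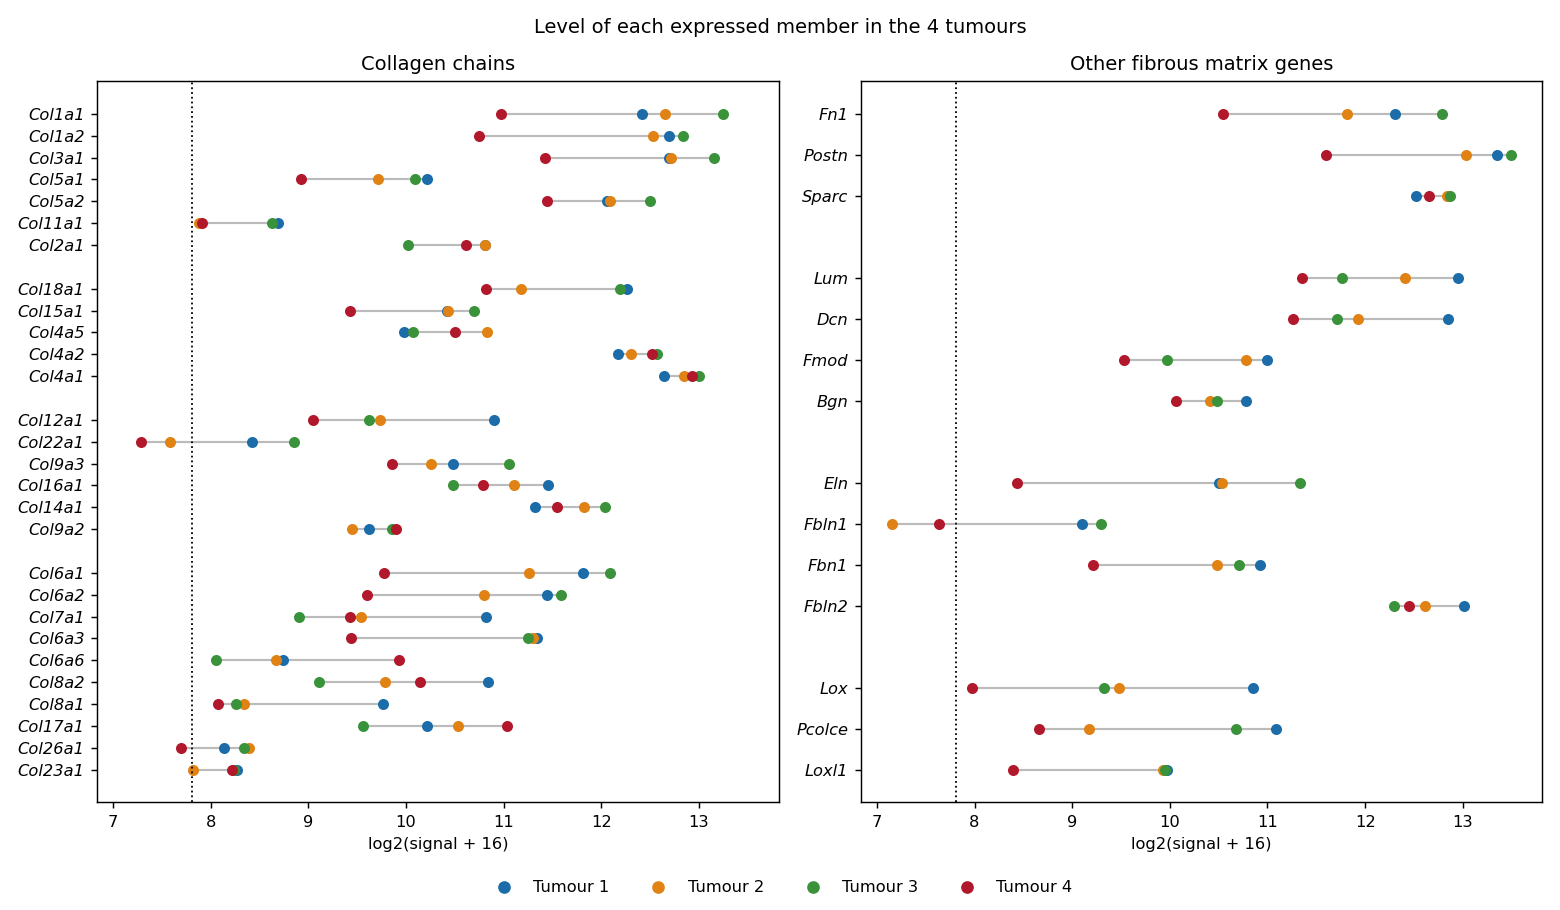
Level of each of the 42 expressed members in each tumour as log2(signal + 16); each point is 1 array, the grey bar is the range, members are grouped by class (collagens left, others right), and the dotted line is the expression level of 7.81. Tumour 4 is the leftmost point for 26 members, while the points of Col4a1, Col4a2 and Sparc nearly coincide.

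The fibrillar collagens of the interstitial matrix, types I, III and V, were lowest in tumour 4, with tumours 1 to 3 close together. Col1a1, which encodes the major chain of type I collagen, measured 12.42, 12.65, 13.25 and 10.98 in tumours 1 to 4, a range of 2.27 log2 or 4.84-fold. Col1a2, the partner chain, measured 12.69, 12.53, 12.83 and 10.75. Tumour 4 lay 1.45 and 1.78 log2 below the next tumour for these 2 chains, while tumours 1 to 3 differed from each other by less than 1 log2. Their other probe sets gave the same order at the extremes, with 11.02 in tumour 4 against 11.87 to 12.75 for Col1a1 and 10.26 against 12.08 to 12.51 for Col1a2. Col3a1, whose homotrimer forms the fine reticular fibrils, measured 12.69, 12.72, 13.15 and 11.43. Tumour 4 was again apart from the rest, by 1.27 log2.

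Type V collagen, which nucleates type I fibrils and limits their diameter, was also lowest in tumour 4. Col5a1 measured 10.22, 9.71, 10.09 and 8.93, and Col5a2 12.06, 12.09, 12.50 and 11.45. Tumour 4 was the lowest for both on both of their probe sets, although the highest tumour for Col5a1 was tumour 1 on the brighter set and tumour 3 on the other. Col5a3 had the widest range of any member, 4.41 log2, with 8.87, 9.19, 8.31 and 4.78. It fell just short of the expression level, with a mean of 7.79, and is named here after its values were seen. Its deposited signal in tumour 4 was 11.5, below the added constant of 16, so the size of that difference is uncertain.

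Col11a1, the type XI chain that joins type V in fibrils outside cartilage, measured 8.69, 7.88, 8.63 and 7.91, with tumours 2 and 4 near the expression level and tumour 2 lowest, though tumour 4 was lowest after either rescaling. Its other 2 probe sets were under the expression level, and tumour 4 was lowest on one of them, at 5.63 against 6.67 to 7.52, and tumour 2 on the other. Col2a1, the main collagen of cartilage, measured 10.81, 10.81, 10.02 and 10.61, the smallest range among expressed chains of the class at 0.80, and was lowest in tumour 3. Its other 2 probe sets lay between 5.53 and 7.52, and none of the 6 cartilage genes measured (Acan, Matn1, Comp, Hapln1, Cnmd and Chad) was expressed by its mean, though Cnmd reached 8.69 in tumour 1 and Chad 9.90 in tumour 3. The other fibrillar chains Col11a2, Col24a1 and Col27a1 were under the expression level, and Col11a2 was lowest in tumour 4 with 7.65, 6.58, 6.95 and 5.74. Of the 7 expressed fibrillar chains, 5 had a range of at least 1 log2, and the median shift in tumour 4 was -1.08, against -0.02 over all expressed genes.

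Upstream bases of Col1a2 and of the periostin gene Postn, both at least 1 log2 below each other tumour in tumour 4, are shown from the RefSeq promoter table (assembly GRCr8) because both carry a TATA motif. Capitals mark the motifs TATAAA and CCAAT, the latter on the reverse strand as ATTGG. The Col1a2 stretch is chr4:33518307-33518417 on the plus strand, from 250 to 140 bases before the annotated start. The Postn stretch is chr2:140677951-140678060 on the plus strand, from 110 bases to 1 base before the start.
Col1a2: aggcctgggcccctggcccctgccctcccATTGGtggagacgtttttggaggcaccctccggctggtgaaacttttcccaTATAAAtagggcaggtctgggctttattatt
Postn: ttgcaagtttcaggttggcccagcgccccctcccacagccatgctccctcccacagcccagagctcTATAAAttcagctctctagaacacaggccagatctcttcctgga
Promoters of 40 of the 55 members were in that table. Those of Col1a1, Col3a1, Col6a2, Fn1, Eln and Lox, all apart and low in tumour 4, were not. The stretch between the starts of Col4a1 and Col4a2 counts for both genes. In the 250 bases before the start, TATAAA on either strand was found in 5 of 40 (12.5%), against 13.1% of 27457 promoters, and CCAAT in 11 of 40 (27.5%) against 34.3%. TATAAA was also found in Col17a1, which was highest in tumour 4. It was not found in Col6a1, Col6a3, Fbn1 and Loxl1, which were apart and low in tumour 4 like Col1a2 and Postn. GGGCGG, the core of a GC box, was found in 21 of 40 (52.5%) against 32.4%, and CAGAC, a short element bound by Smad proteins, in 17 of 40 (42.5%) against 42.8%. These are matches of letters, not sites.

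**Figure D2:**
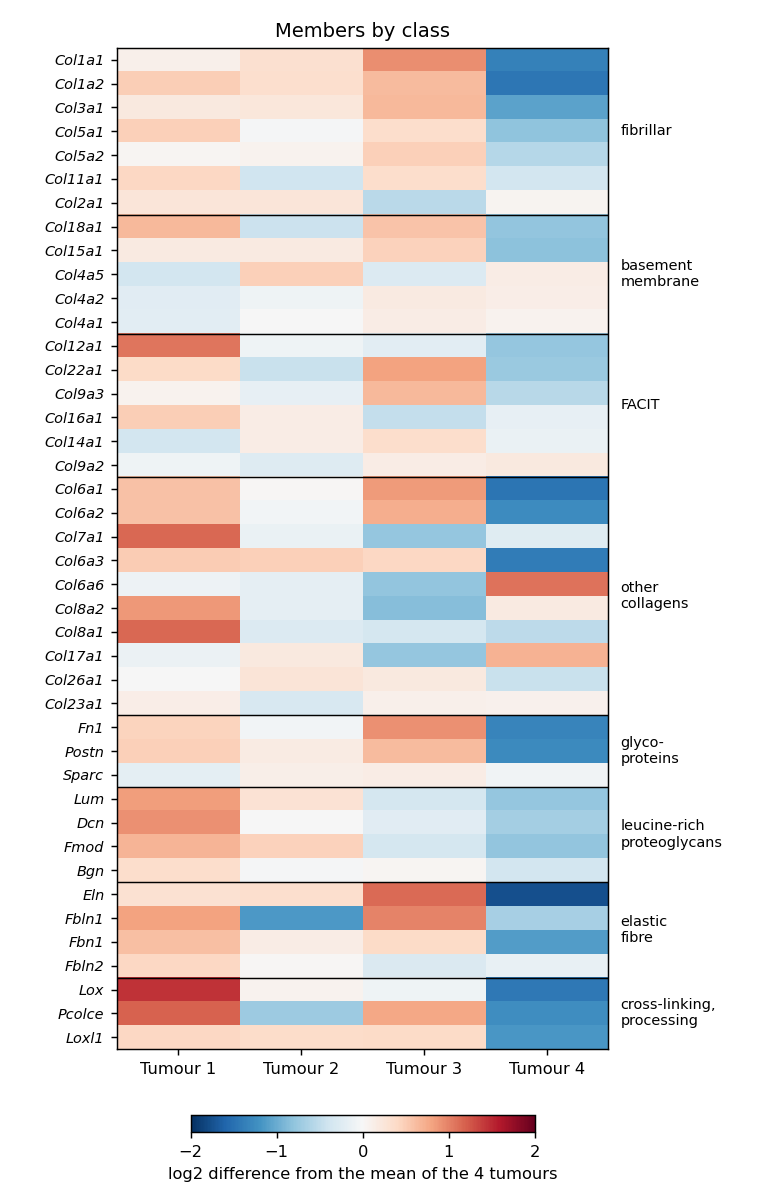
Difference of each expressed member (rows, by class) from its own mean over the 4 tumours (columns), in log2, blue for below and red for above, with colours saturating at 2. The column of tumour 4 is blue for type I, III, V and VI collagens, Fn1, Postn, Eln, Fbn1 and the cross-linking genes, pale for type IV collagen and Sparc, and red for Col6a6 and Col17a1.

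The main pair of type IV collagen chains of basement membranes stayed nearly level in the same 4 tumours. Col4a1 measured 12.65, 12.84, 13.00 and 12.92, and Col4a2, its partner in the common heterotrimer, 12.17, 12.30, 12.57 and 12.52. Their ranges were 0.35 and 0.40 log2, under the median gene, and tumour 4 lay between tumours 2 and 3 for both, or highest after quantile normalization. The other probe set of Col4a1 gave 12.22, 12.60, 12.75 and 12.66. Whether these probes lose contrast at high signal was not tested.

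The starts of Col4a1 and Col4a2 lie head to head, and the annotated start sites leave 76 bases between them. This shared stretch is shown because both chains are read outward from it. It is chr16:84885521-84885596 of GRCr8, printed on the plus strand, which is the strand of Col4a1, and capitals mark the GC-box letters GGGCGG found on the reverse strand.
Col4a1 and Col4a2: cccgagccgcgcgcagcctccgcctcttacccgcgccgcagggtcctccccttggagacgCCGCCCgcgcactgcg
Col4a5 and Col4a6, chains of the basement membranes of specialised epithelia, are likewise head to head, on chromosome X with 1414 bases between the starts. They did not run level together. Col4a5 measured 9.98, 10.83, 10.08 and 10.50, with all tumours within 0.85 log2. Col4a6 measured 7.28, 7.48, 5.24 and 7.98, was under the expression level by its mean, and was lowest in tumour 3 on both of its probe sets. It is named here after its values were seen.

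The multiplexins, collagens of the zone between basement membrane and stroma, were lowest in tumour 4, unlike the type IV pair. Col18a1, whose C-terminal fragment is endostatin, measured 12.27, 11.18, 12.19 and 10.82, and its other probe set 11.96, 10.56, 11.66 and 10.23. Tumours 1 and 3 were thus high and tumours 2 and 4 low on both. Col15a1 measured 10.42, 10.43, 10.70 and 9.42, lowest in tumour 4 on both probe sets, which named different tumours as highest. Of the 5 expressed chains of this class 2 had a range of at least 1 log2, and the class median shift in tumour 4 was 0.09. Col4a4 was under the expression level.

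FACIT collagens were mixed. Col12a1, which is laid on type I fibrils of tissues under tension, measured 10.90, 9.73, 9.62 and 9.05 and stood 1.17 log2 above the next tumour in tumour 1. Its other probe sets were also highest there, at 8.84 and 7.77, but were under the expression level. Col14a1, a related chain, had the opposite order at the top: tumour 1 was lowest at 11.32, and tumours 2 to 4 were at 11.83, 12.04 and 11.55, with the same highest and lowest tumours on both probe sets. Col22a1, a chain of tissue junctions, measured 8.42, 7.59, 8.85 and 7.29, so tumours 2 and 4 were under the expression level. Col9a3 measured 10.48, 10.25, 11.06 and 9.86, while Col9a2, another chain of type IX collagen, had the smallest range of the class with 9.62, 9.44, 9.85 and 9.89. Col16a1 measured 11.45, 11.10, 10.48 and 10.79. In all, 3 of 6 expressed FACIT chains had a range of at least 1 log2, and Col9a1, Col19a1 and Col20a1 were under the expression level.

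Type VI collagen, which forms beaded filaments around cells, was also lowest in tumour 4 in its main chains. Col6a1 measured 11.81, 11.26, 12.09 and 9.78, with tumour 4 lower by 1.48 log2 than the next tumour. Col6a2 measured 11.44, 10.80, 11.58 and 9.60, and Col6a3 11.34, 11.31, 11.25 and 9.44. All 3 chains of the classical trimer were thus apart in tumour 4. The dimmer probe set of Col6a2 was also lowest there, at 5.85, but had tumour 1 as highest. That of Col6a3 disagreed, with 8.52, 6.92, 8.78 and 7.87, lowest in tumour 2. Col6a6, an alternative type VI chain, ran the other way, with 8.74, 8.67, 8.05 and 9.93. It was the only expressed member at least 1 log2 above every other tumour in tumour 4, against 0.383% of expressed genes.

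Several collagens of other kinds were highest in tumour 1 or lowest in tumour 3. Col7a1, the anchoring fibril that ties epithelial basement membrane to stroma, measured 10.82, 9.54, 8.90 and 9.43. Col8a1 and Col8a2, short-chain collagens of vessel walls and other matrices, measured 9.76, 8.34, 8.25 and 8.08, and 10.83, 9.78, 9.11 and 10.14. Tumour 1 was the highest for all 3, and Col7a1, Col8a1, Col12a1 and Lox were the 4 members at least 1 log2 above every other tumour there, against 1.17% of expressed genes. Col17a1, the transmembrane collagen of hemidesmosomes in basal epithelial cells, was highest in tumour 4 and lowest in tumour 3, with 10.22, 10.53, 9.56 and 11.04. The basal keratin gene Krt14 was also lowest in tumour 3, at 8.24 against 11.34 to 12.39, and the basal and myoepithelial list (7 expressed genes) had a median shift of -1.13 there. The list was divided: 4 of its genes were lowest in tumour 3, while 2, Acta2 and Cnn1, lay above the mean of the others. The basal keratin gene Krt5 was nearly level, with 12.94, 12.82, 12.83 and 13.09. The part of basal and myoepithelial cells in the level of Col17a1 was not tested. Col23a1, a transmembrane collagen, varied little, with 8.27, 7.81, 8.24 and 8.22, and Col26a1 had a range of 0.70. Col10a1, Col13a1, Col25a1 and Col6a5 were under the expression level. Of the 10 expressed chains, 8 had a range of at least 1 log2.

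The adhesive glycoproteins divided. Fn1, fibronectin, on which collagen fibrils are first assembled, measured 12.31, 11.81, 12.78 and 10.55. Postn, periostin, which binds collagen and fibronectin and recruits processing enzymes, measured 13.35, 13.03, 13.50 and 11.60. Both were apart in tumour 4, by 1.27 and 1.43 log2. Sparc, a collagen-binding protein that many stromal and endothelial cells secrete, stayed within 0.34 log2, with 12.53, 12.84, 12.87 and 12.65, and within 0.54 on its other probe set. Its tumour 4 value was not the lowest on the brighter set.

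Small leucine-rich proteoglycans, which bind the surface of collagen fibrils and set their spacing, were highest in tumour 1 and lowest in tumour 4. Dcn, decorin, measured 12.85, 11.93, 11.71 and 11.26, and Lum, lumican, 12.95, 12.41, 11.77 and 11.35. Fmod, fibromodulin, measured 11.00, 10.78, 9.97 and 9.54. In all 3 genes tumour 2 was above tumour 3. Bgn, biglycan, measured 10.78, 10.41, 10.48 and 10.07, a smaller range of 0.71. In tumour 3 the median shift of the class was -0.39 while that of the fibrillar chains was 0.63. No test of this difference was possible with 1 array per tumour.

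**Figure D3:**
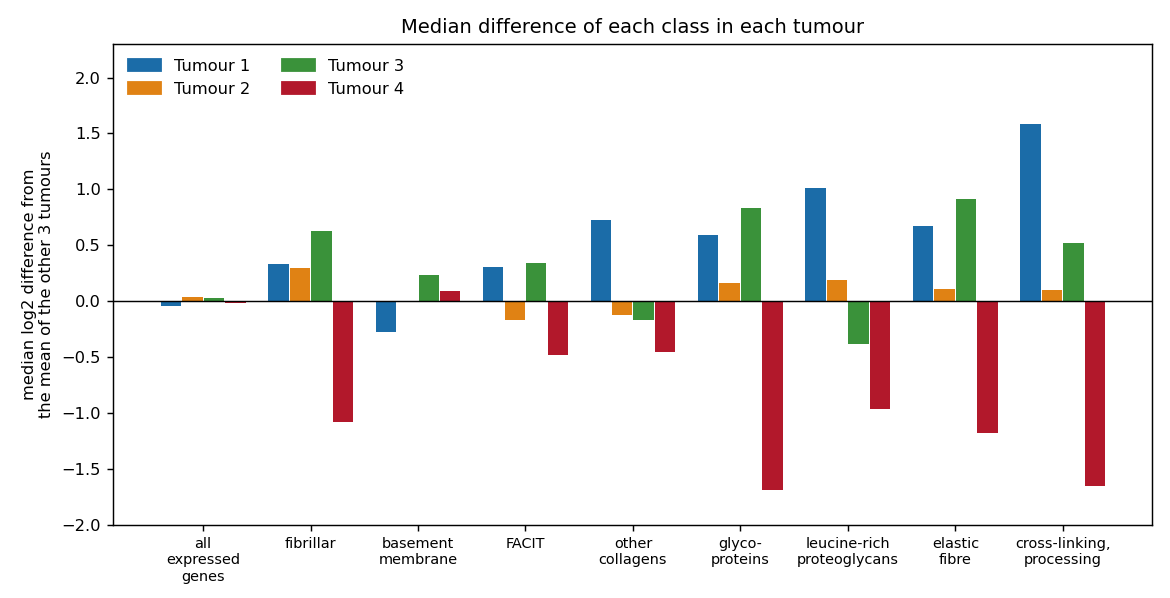
Median over the expressed members of each class of the log2 difference between a tumour and the mean of the other 3, with all expressed genes at the left (bars between -0.04 and 0.04). Bars of tumour 4 reach -1.08 for fibrillar collagens, -1.69 for glycoproteins and -1.65 for the cross-linking and processing genes, and 0.09 for basement membrane collagens, and no error bar is drawn since each tumour has 1 array.

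Elastin was among the widest-ranging members. Eln, which encodes it, measured 10.50, 10.53, 11.33 and 8.44, a range of 2.89 log2 or 7.43-fold, with tumour 4 apart by 2.06. Its dimmer probe set was also lowest in tumour 4, at 4.58, with tumour 1 highest. Fbn1, fibrillin of the microfibrils on which elastin is laid, measured 10.93, 10.48, 10.71 and 9.22, and both of its probe sets had tumour 1 highest and tumour 4 lowest. Fbln1, a fibulin of elastic fibres and basement membranes, measured 9.10, 7.15, 9.30 and 7.64. Tumours 2 and 4 were under the expression level, and its other probe set stayed between 5.58 and 6.34 with tumour 4 highest, so the contrast of Fbln1 is uncertain. Fbln2, a related fibulin, had a range of 0.71, with 13.01, 12.61, 12.30 and 12.45.

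The enzymes and cofactors that mature collagen had a class median range of 2.43 log2, the largest except without tumour 1, where that of the glycoproteins was larger. Lox, lysyl oxidase, which starts the cross-linking of collagen and elastin, measured 10.85, 9.48, 9.32 and 7.98. It was the only expressed member at least 1 log2 above every other tumour in one cancer and at least 1 log2 below every other in another. Its other probe set gave 9.34, 7.70, 7.99 and 6.72. Pcolce, which speeds the removal of the procollagen C-propeptide, measured 11.09, 9.18, 10.68 and 8.66, so tumours 1 and 3 were high and tumours 2 and 4 low. Loxl1, a lysyl oxidase of elastic fibres, measured 9.97, 9.93, 9.95 and 8.40. Tumours 1 to 3 were thus equal within 0.05 log2 and tumour 4 lay 1.53 below them.

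**Figure D4:**
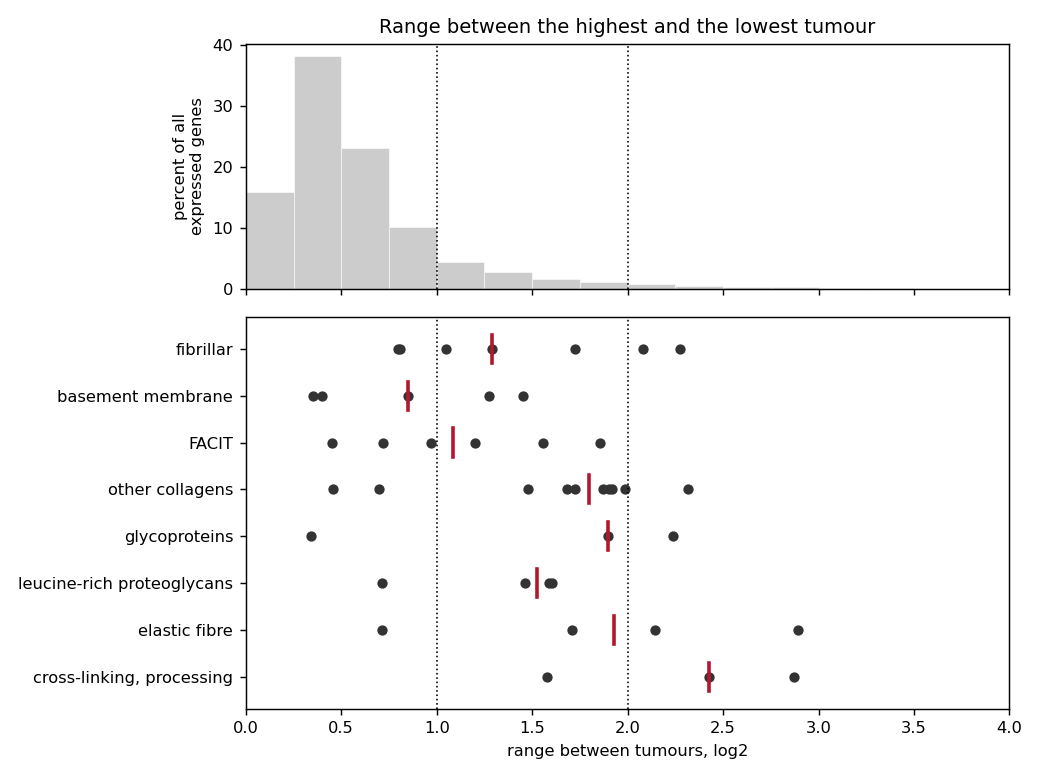
Top, the share of all 9403 expressed genes by range between the highest and the lowest tumour in steps of 0.25 log2, with 18 genes above 4 not drawn. Bottom, the range of each expressed member (points) and the class median (red bar), with dotted lines at 1 and 2 log2. Class medians run from 0.85 for basement membrane collagens to 2.43 for the cross-linking and processing genes.

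Agreement between probe sets of a gene gives the error of the probes, though not of the RNA or array, which they share. Both of the brightest probe sets were expressed in 12 members, and the same tumour was lowest in 10 and highest in 9 of them. Over all 2330 such genes these shares were 45.2% and 49.4%. Among the 9 of these members with a range of at least 1 log2, the lowest tumour was shared by 8, the exception being Col6a3, and the highest by 6. Among all 213 genes with such a range and both sets expressed these shares were 75.6% and 76.1%. The second set also had a range of at least 1 log2 in 8, the exception being Col5a2 at 0.99.

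Genes that fold and modify collagen chains inside the cell did not share the low values of tumour 4. Of 17 expressed genes in this list (20 measured of 23 listed), 4 had a range of at least 1 log2 and 0 a range of at least 2, and their median shift in tumour 4 was 0.04. Serpinh1, the collagen-specific chaperone, measured 12.41, 12.65, 13.05 and 12.44. P4ha1, a prolyl hydroxylase subunit, measured 11.16, 9.32, 10.22 and 10.98, and Plod2, a lysyl hydroxylase of collagen telopeptides, 9.71, 8.51, 9.41 and 9.06. Both were highest in tumour 1 and lowest in tumour 2. The 3 expressed genes of procollagen cleavage and cross-linking were highest in tumour 1. The lysyl oxidase Loxl3 measured 9.80, 7.75, 8.84 and 7.70. The transglutaminase Tgm2 measured 11.14, 9.998, 10.08 and 10.27, a range of 1.14.

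Among the 3 expressed collagen receptors, Ddr2, the discoidin receptor of mesenchymal cells, measured 9.93, 9.03, 9.96 and 8.02, while its epithelial relative Ddr1 had a range of 0.31. Itgb1, an integrin subunit, measured 12.40, 12.53, 12.72 and 12.64. Of 6 expressed genes of collagen breakdown, 3 had a range of at least 1 log2. Mmp13, a collagenase, was highest in tumour 4, with 10.75, 9.73, 8.37 and 11.87. Mmp2, a gelatinase made by stromal cells, was lowest there, with 11.94, 11.63, 11.94 and 10.11.

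Other basement membrane proteins had no common direction in tumour 4, with a negative shift in 8 of 14 expressed genes and a median shift of -0.15. The laminin gene Lamc1 and the perlecan gene Hspg2 had ranges of 0.26 and 0.13, and the widest in the list were Smoc2 (10.10, 11.47, 10.58 and 9.25) and Nid2 (9.13, 7.85, 9.11 and 8.44). Other elastic fibre proteins had a negative shift in tumour 4 in 10 of 12 expressed genes. Efemp1, a fibulin family member, measured 7.74, 9.22, 10.25 and 6.85, and Mfap4, a microfibril-associated protein, 10.52, 10.01, 9.44 and 7.66. Of 4 further small leucine-rich genes, Ogn measured 9.48, 7.78, 9.60 and 6.98 and Prelp 11.96, 10.41, 9.61 and 10.96, so their orders differed. Of 12 expressed fibrosis signals, 3 had a range of at least 1 log2, among them Twist1 (10.23, 9.18, 9.77 and 8.21) and Ccn2 (12.42, 10.59, 11.52 and 11.46), a matrix-inducing growth factor, and the median shift in tumour 4 was 0.00.

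**Figure D5:**
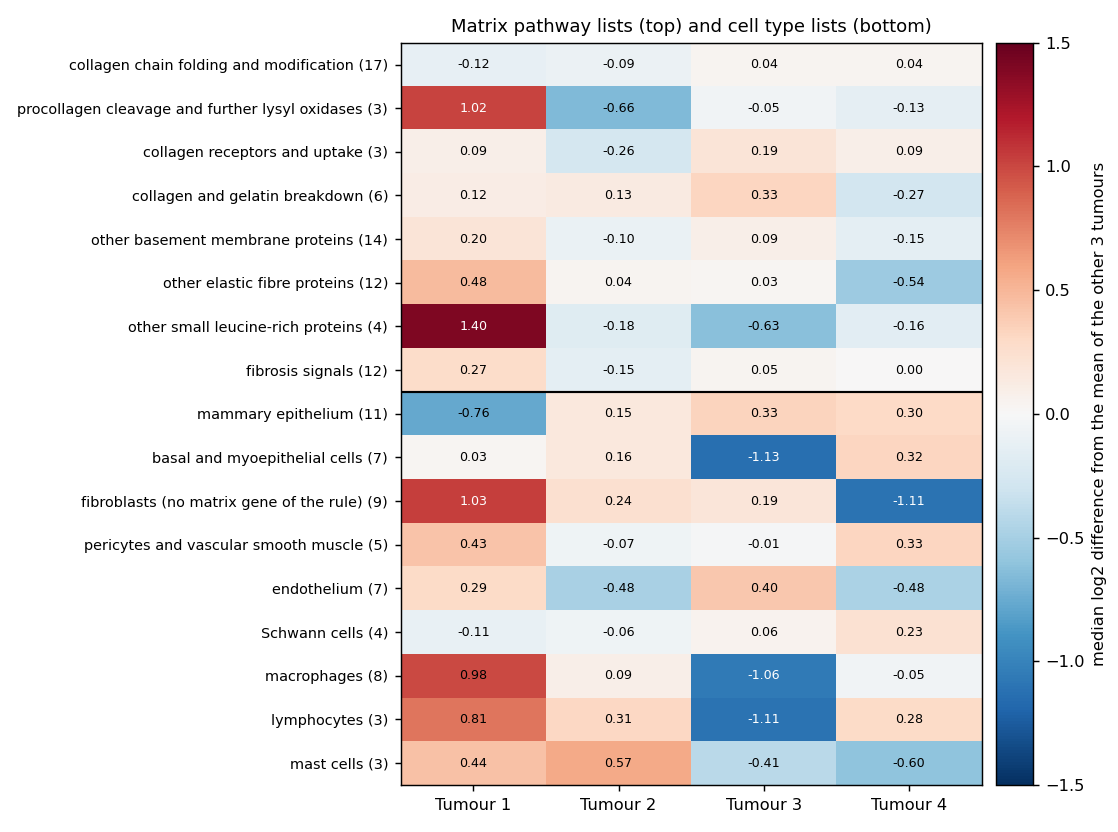
Median shift of each tumour (columns, log2 difference from the mean of the other 3) over the expressed genes of 8 matrix pathway lists (top) and of the cell type lists with at least 3 expressed genes (bottom), with the number of expressed genes in brackets. The fibroblast list reads -1.11 in tumour 4 and 1.03 in tumour 1, while chain folding and modification stays within -0.12 and 0.04.

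Fibroblast genes that are not members moved with the fibrillar chains in tumour 4. Of 9 expressed genes of that list (15 measured), 8 had a negative shift there and 7 were lowest there, with a median shift of -1.11. The summed signal of the list was 18737, 11784, 11141 and 6443 in tumours 1 to 4. Pdgfra, the receptor that marks tissue fibroblasts, measured 11.90, 10.02, 10.74 and 8.54, and Vim, vimentin, 12.67, 12.20, 12.32 and 11.51. The markers Fap, Pi16, Tcf21, Lrrc15, Twist2 and Prrx1 were under the expression level. Twist1, Twist2, Prrx1 and Fap also stand in the pathway lists above. In tumour 1 the list was highest in 8 of 9 genes, with a median shift of 1.03, while tumour 3 held the top of types I and III. In whole tumours fewer fibroblasts and less matrix RNA per fibroblast cannot be told apart, and the part of fibroblast number in the member values was not tested.

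Other cell type lists had median shifts between -0.60 and 0.33 in tumour 4. The pericyte and vascular smooth muscle list had a median shift of 0.33 in tumour 4 (5 expressed genes, summed signal 6631 to 10025), with Myh11 at 11.50 against 9.26 to 10.60 and Rgs5 at 9.46 against 8.45 to 9.75. Its markers Abcc9, Cspg4, Kcnj8 and Des were under the expression level. Myh11 also stands in the basal and myoepithelial list. Of the 5 expressed genes 2 were highest in tumour 4, and Mcam lay below the mean of the others there. The endothelial list had -0.48 in tumours 2 and 4 and 0.40 in tumour 3, with summed signals of 3227, 2761, 3460 and 2564. The mammary epithelial list was low in tumour 1, with a median shift of -0.76 and 10 of 11 expressed genes lowest there (Esr1 was under the expression level). In tumour 4 its median shift was 0.30, with 9 of 11 expressed genes above the mean of the others. The basal and myoepithelial list had 0.32 in tumour 4, with all 7 expressed genes above that mean. The macrophage list was 0.98 in tumour 1 and -1.06 in tumour 3. The mast cell list had a median shift of -0.60 in tumour 4 and 2 of its 3 expressed genes, Cpa3 and Tpsb2, were lowest there, while Kit was not. The lymphocyte and Schwann cell lists had 0.28 and 0.23 there (3 and 4 expressed genes), and the 2 expressed adipocyte genes, Lpl and Cfd, -0.46. Of the adipocyte list 2 of 8 measured genes were expressed, of bone 1 of 5 and of skeletal muscle 1 of 7. Where these lists moved with member genes, their part was not tested.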

How the data were processed

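Signals of 31099 probe sets were deposited by the authors as linear intensity values for 4 tumours, 1 array each. How they were computed and scaled is not given in the sources used here. Per the labels' protocols, 8 µg of total RNA was copied from an oligo-dT primer and labelled with biotin, which favours 3' ends. Values were used as deposited and transformed to log2(value + 16), without the shift to a common median, which is an alternative. Probe sets were named from the platform annotation (20826 with 1 gene, 436 with several, left out), with 20758 found in RefSeq assembly GRCr8. The probe set of highest mean stood for a gene. Calculations used Python 3.11.15, pandas 2.3.3 and numpy 2.4.6, and were tested on simulated data. The simulated noise was smaller than the median SD of the expressed genes. That run checks the code and not how often the calls err in these data. Since 1 group holds all samples, no test between groups was run, and precision is limited by the number of arrays. Dixon's ratio served only to flag single members. Members, classes, lists and thresholds were chosen with earlier results of these data known. Values in all tumours are given for members with a range of at least 2 log2, for the 2 widest and the narrowest of each class, and for the 2 widest genes of each pathway list; further members and marker genes were added for context after their values were seen. Of the collagen chains listed by class, 4 had no named probe set. Alternatives were median centring, quantile normalization, pseudocounts of 1 and 64, averaged probe sets, 2 other expression levels and leaving out each tumour. Protein sequences and coordinates of probe sets were not used here.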

Additional observations from a re-analysis of the deposited data

Results flagged for a closer look

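For 5 of 55 members 1 tumour stood away from the other 3 by a gap that, divided by the whole range, exceeded the 95% critical value of Dixon's ratio for 4 values. Chance flags about 1 in 20 genes, and 5.63% of all expressed genes exceeded it, against 11.9% of the 42 expressed members, which include all 5. Loxl1 had a ratio of 0.970, Col6a3 one of 0.951 and Col1a2 one of 0.855, in each case with tumour 4 low. These flags rest on the same array and are not independent of each other. For Col6a3 the dimmer probe set had tumour 2 lowest instead. Col8a1 had a ratio of 0.846 with tumour 1 high, at 9.76 against 8.08 to 8.34. Col23a1 had a ratio of 0.881 with tumour 2 low, within a range of 0.46 log2.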

How the results depend on the processing

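Results that changed were mostly those that rest on tumour 4. Leaving out 1 tumour at a time gave between 12 and 29 members with a range of at least 1 log2 and between 1 and 7 with at least 2, with both lowest counts without tumour 4. The class median range went from 0.51 to 1.29 for fibrillar, 0.40 to 0.85 for basement membrane, 0.62 to 1.08 for FACIT and 0.81 to 1.80 for other collagens, from 0.47 to 1.90 for glycoproteins and from 0.77 to 1.83 for elastic fibre genes. The lowest value came without tumour 4, except for FACIT collagens, where it came without tumour 3. With no expression level the basement membrane class had a median range of 1.27 and a median shift of 0.23 in tumour 1, from -0.28, because the dim Col4a4 and Col4a6 entered; 38 of 55 members then had a range of at least 1 log2 (21.1% of all genes) and 12 of at least 2 (3.99%). Tumour 4 was lowest for 26 members as deposited and for 27 after median centring or quantile normalization. The fibrillar shift in tumour 4 stayed between -1.34 and -0.97 over all alternatives. No paired analysis was possible because all samples belong to 1 group. Dim signals limit the size of differences below the expression level.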
